A study of Mus musculus with 6 samples.

Results

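Resident macrophage genes were measured in whole-liver RNA from ethanol-fed mice lacking ACSS2 in hepatocytes and from ethanol-fed floxed controls. The genes described are the 10 rows of the expression table that belong to a short list of Kupffer cell and general macrophage markers, of 16135 genes in all. They are C1qa, C1qb, C1qc, Clec4f, Timd4, Vsig4, Cd5l, Marco, Adgre1 and Cd68, and all 10 passed a filter of a mean of at least 1 FPKM. FPKM is the number of fragments of a gene scaled to its length and to the library total, so levels of different genes can be set side by side on it.

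The genotypes were ACSS2-HKO, a hepatocyte-specific knockout of Acss2, and ACSS2-flox, and 3 libraries of each were sequenced from liver. ACSS2 is the enzyme that makes acetyl-CoA from acetate, a product of ethanol oxidation. Animals of both genotypes were fed the Lieber-Decarli liquid diet with ethanol over 10 days and then given 1 ethanol binge, so no group without ethanol enters the comparison. The driver of the Cre recombinase, the age and the sex of the mice were not given in the sources used here, and neither was whether a library came from 1 animal or from a pool. Replicates may therefore be technical in part, and p-values measure the spread between these 6 libraries. Cells other than hepatocytes, the macrophages among them, are not the labelled target of the deletion.

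Kupffer cells are the resident macrophages of the liver. They sit in the sinusoids, the small blood vessels of the liver, and remove bacteria, aged red cells and debris from portal blood with scavenger and complement receptors. Resident cells carry Clec4f, Timd4 and Vsig4, which newly arrived monocytes lack at first, while Adgre1 and Cd68 are carried by most macrophages. Ethanol and bacterial products that reach the liver with it are known to act on these cells.

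Acss2 itself was measured first, as a check of the labels. It read 50.6, 38.4 and 45.7 FPKM in ACSS2-HKO replicates 1, 2 and 3, against 87.8, 61.5 and 58.5 FPKM in ACSS2-flox replicates 1, 2 and 3. The groups did not overlap, and the mean in ACSS2-HKO was 0.648 times that in ACSS2-flox. Of the 9818 tested genes, 2.94% were lower without overlap in this way. By limma, the test described below, Acss2 had an adjusted p of 0.637 and was not called. ACSS2-flox replicate 1 was the highest library, and without it and ACSS2-HKO replicate 3 the ratio of the means was 0.742. The value covers the whole gene, so the deleted part is not resolved. The FPKM values implied 33717125 to 39474527 fragments per library. On the first principal component of all tested genes, which held 47.2% of the variance, ACSS2-flox replicate 1 lay at 47.7 and ACSS2-HKO replicate 3 at -27.6, while the other libraries lay between -8.49 and -2.51. These 2 libraries stand apart, and the fold changes of the 10 genes and the list medians are given with and without them.

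All 10 macrophage genes had a higher mean in ACSS2-HKO livers than in ACSS2-flox livers, by 1.78-fold for Vsig4 to 4.51-fold for Marco. In 8 of the 10, every ACSS2-HKO library lay above every ACSS2-flox library, a pattern found in 12.5% of the 9818 tested genes, while 2.94% were lower in that way. With median-ratio scaling 7 of the 10 showed it, against 7.55% of tested genes higher and 6.75% lower, so the balance of the background depended on the scaling. For all 10 genes ACSS2-HKO replicate 3 was the highest library. By limma, a linear model with a shared estimate of the spread, 0 of the 10 passed an adjusted p of 0.05, and neither did any other gene of the table (0% of 9818, smallest adjusted p 0.452). At an unadjusted p under 0.05, 10 of the 10 were higher, against 6.09% of all tested genes (598 genes), and 0 of the 10 were lower, against 1.5% (147 genes). The count of higher genes among the 10 was 6 with median-ratio scaling, where 371 genes of the table were higher and 302 lower. It was 4 without ACSS2-HKO replicate 3, where 2.87% of tested genes were higher and 0.754% lower. Without both libraries that stand apart it was 4, against 5.37% of tested genes higher and 3.78% lower. It was 1 without ACSS2-flox replicate 1, where 502 genes were higher and 460 lower. A log2 fold change as high as the lowest of the 10 was found in 2.52% of tested genes. The model voom, run on whole fragments recovered from the values, also called 0 genes.

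In whole tissue, more macrophages and more RNA of these genes per macrophage cannot be told apart, and this holds for every value that follows. A miss of the adjusted threshold does not show that the genotypes had equal levels.

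Sequence upstream of the gene starts is shown for 4 of the genes: C1qb as a chain of C1q, Marco and Cd5l because they varied most over the libraries, and Clec4f as a marker of Kupffer cells. Each run holds the 250 bases before the RefSeq start in the build GRCm38.p6, read 5′ to 3′ on the strand of the gene. Windows were found for 8 of the 10 genes, and those of C1qc and Timd4, which reach into the annotated gene, were searched but are not shown. The windows are chr4:136886201-136886450 on the minus strand for C1qb, chr3:87357631-87357880 on the plus strand for Cd5l, chr1:120505025-120505274 on the minus strand for Marco and chr6:83656117-83656366 on the minus strand for Clec4f. Capitals mark GAGGAA or its reverse complement TTCCTC, the core of sites bound by the macrophage factor PU.1, and TGCTGA or its reverse complement TCAGCA, part of the element bound by Maf factors. No capital letters of the first motif overlap those of the second.
C1qb: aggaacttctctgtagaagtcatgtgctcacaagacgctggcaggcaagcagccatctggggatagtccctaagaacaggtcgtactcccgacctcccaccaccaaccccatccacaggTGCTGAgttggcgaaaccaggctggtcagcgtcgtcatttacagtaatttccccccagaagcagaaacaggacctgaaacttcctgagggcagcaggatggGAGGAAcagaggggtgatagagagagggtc
Cd5l: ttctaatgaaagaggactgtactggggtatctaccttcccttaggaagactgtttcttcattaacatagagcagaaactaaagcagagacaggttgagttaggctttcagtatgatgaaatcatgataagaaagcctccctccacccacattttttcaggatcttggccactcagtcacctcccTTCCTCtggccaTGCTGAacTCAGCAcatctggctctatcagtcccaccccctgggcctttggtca
Marco: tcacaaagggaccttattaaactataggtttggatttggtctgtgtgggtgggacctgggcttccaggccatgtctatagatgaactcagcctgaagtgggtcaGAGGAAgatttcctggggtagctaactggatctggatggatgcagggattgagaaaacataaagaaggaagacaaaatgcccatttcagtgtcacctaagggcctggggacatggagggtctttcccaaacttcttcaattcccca
Clec4f: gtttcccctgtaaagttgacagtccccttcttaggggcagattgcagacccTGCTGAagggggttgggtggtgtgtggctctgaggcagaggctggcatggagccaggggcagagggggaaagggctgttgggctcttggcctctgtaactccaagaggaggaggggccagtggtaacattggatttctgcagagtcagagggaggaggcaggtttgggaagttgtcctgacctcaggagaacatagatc

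GAGGAA or TTCCTC was present in 6 of the 8 windows (C1qb, C1qc, Cd5l, Marco, Cd68 and Vsig4), and in 23.3% of 32851 RefSeq windows of the same length. TGCTGA or TCAGCA was present in 4 of the 8 (C1qb, Cd5l, Clec4f and Timd4), and in 16.1% of those windows. Cd5l and C1qb held both. These matches describe letters in a window and were not tested as binding sites.

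The 3 chains of C1q came first in level together with Cd5l. C1q is the recognition unit of the classical complement pathway. Its A, B and C chains assemble in equal number, and in liver they are made mainly by macrophages. Their genes lie side by side on mouse chromosome 4 (mm10) in the order C1qb (chr4:136880126-136886200), C1qc (chr4:136889801-136892936) and C1qa (chr4:136895916-136898844), separated by 3600 and 2979 bases with 0 annotated genes between them.

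C1qa read 111, 105 and 239 FPKM in ACSS2-HKO replicates 1, 2 and 3, against 83.4, 82.6 and 78.7 FPKM in the ACSS2-flox libraries. Its control libraries were the tightest of any of the 10 genes relative to their mean, at 81.6 ± 2.501 FPKM (SD, n = 3), and all ACSS2-HKO libraries lay above them. On the log2(FPKM + 1) scale, on which all fold changes here are given as ACSS2-HKO minus ACSS2-flox, the difference was 0.78 ± 0.31 (SE), with a limma adjusted p of 0.637, and it was 0.42 ± 0.15 without both libraries that stand apart.

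C1qb read 117, 117 and 265 FPKM in ACSS2-HKO, against 69.5, 88.5 and 81.9 FPKM in ACSS2-flox. C1qc read 127, 112 and 259 FPKM in ACSS2-HKO, against 66.2, 89.0 and 79.7 FPKM in ACSS2-flox. In both genes ACSS2-HKO replicates 1 and 2 lay close together and above all controls, and replicate 3 lay at 2.27 times their mean for C1qb and 2.17 times for C1qc. The log2 fold changes were 0.94 ± 0.32 for C1qb and 0.98 ± 0.31 for C1qc, with a limma adjusted p of 0.637 each, and the ratios of the group means were 2.08 and 2.12. Without both libraries that stand apart the fold changes were 0.45 ± 0.16 for C1qb and 0.50 ± 0.17 for C1qc.

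The balance among the chains was similar in all libraries but 1. The ratio of C1qb to C1qc ran from 0.920 to 1.05 over all 6 libraries. The ratio of C1qa to C1qb was 0.952, 0.903 and 0.901 in ACSS2-HKO, against 1.201, 0.933 and 0.962 in ACSS2-flox. The one library that departed was ACSS2-flox replicate 1, in which C1qa was as high as in the other controls while C1qb and C1qc were lower.

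**Figure D1:**
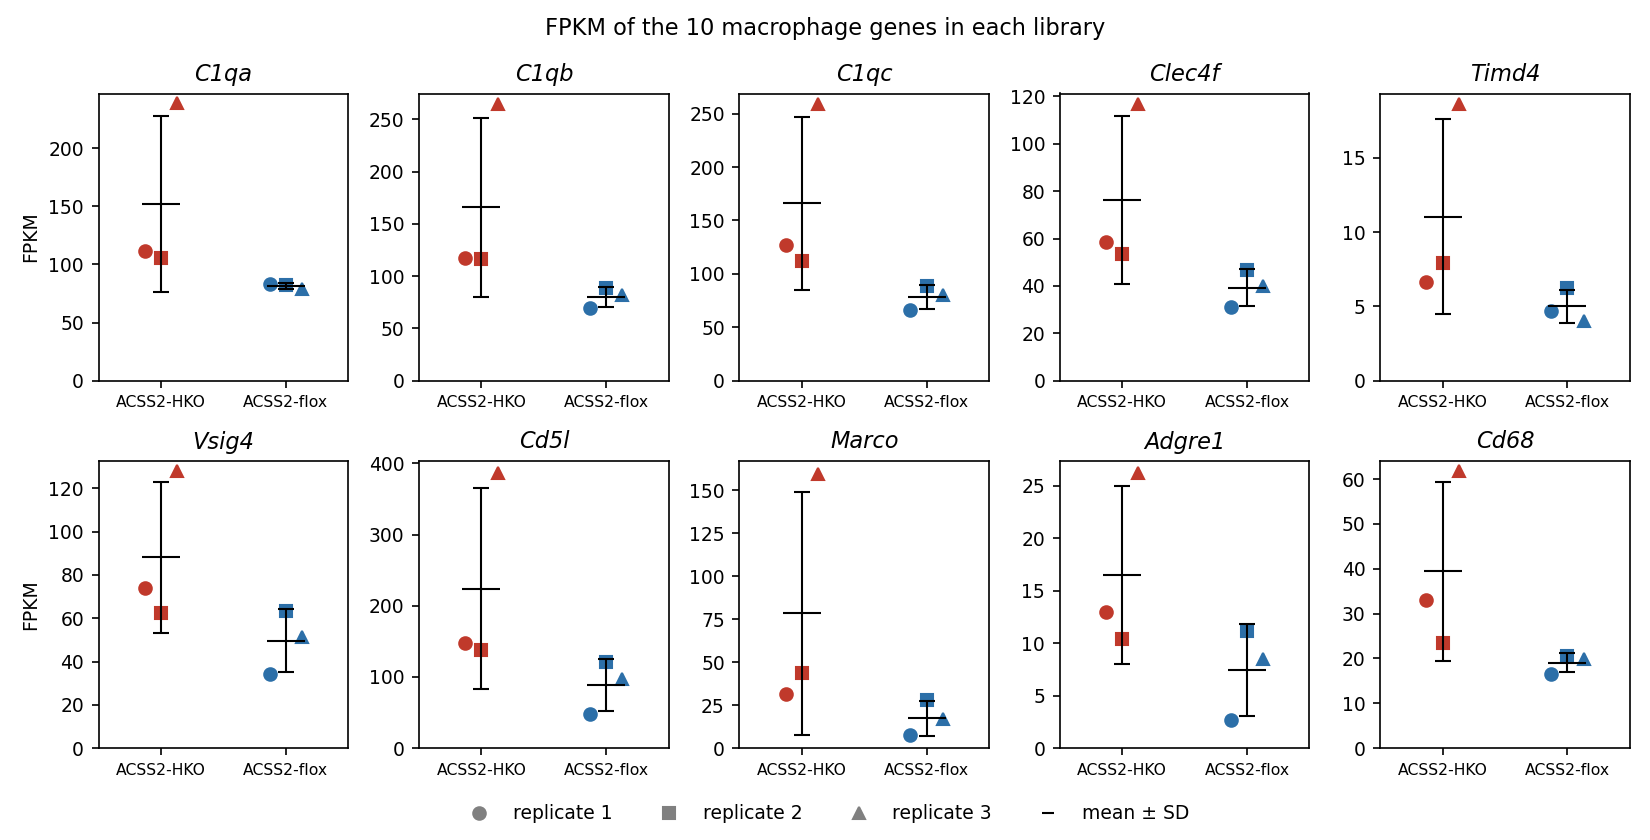
FPKM of each of the 10 genes in the ACSS2-HKO libraries (red, left) and the ACSS2-flox libraries (blue, right), with 1 point per library, its shape giving the replicate number, and black bars for the mean ± SD of 3 libraries. ACSS2-HKO replicate 3 is the highest point in every panel, and only Vsig4 and Adgre1 have groups that overlap.

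Receptors of resident Kupffer cells followed the same pattern at lower levels. Clec4f encodes a galactose-binding lectin that in mice is a near-exclusive marker of Kupffer cells. It read 58.5, 53.3 and 117 FPKM in ACSS2-HKO, against 31.0, 46.5 and 39.97 FPKM in ACSS2-flox. All ACSS2-HKO libraries were above all controls, with replicate 2 of each genotype closest to the other group. The log2 fold change was 0.87 ± 0.31 (limma adjusted p = 0.637), from group means of 76.3 ± 35.3 and 39.2 ± 7.78 FPKM in ACSS2-HKO and ACSS2-flox (SD, n = 3 each). It was 0.37 ± 0.16 without both libraries that stand apart.

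Timd4 encodes TIM-4, a phosphatidylserine receptor for dead cells that marks long-lived resident macrophages. It was the lowest of the 10 genes by mean, at 6.63, 7.92 and 18.6 FPKM in ACSS2-HKO, against 4.72, 6.24 and 4.05 FPKM in ACSS2-flox. The gap between the groups was narrow, 6.63 against 6.24 FPKM at the nearest libraries. That gap was within counting error, since the 535 and 530 fragments behind these values had exact Poisson 95% intervals of 491 to 582 and 486 to 577. The log2 fold change was 0.89 ± 0.35 (limma adjusted p = 0.637), or 0.45 ± 0.21 without both libraries that stand apart.

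Vsig4 encodes CRIg, the complement receptor with which Kupffer cells take up C3-coated bacteria. It read 73.9, 62.5 and 128 FPKM in ACSS2-HKO, against 34.3, 63.3 and 51.4 FPKM in ACSS2-flox. ACSS2-flox replicate 2 lay just above ACSS2-HKO replicate 2, so the groups overlapped (exact permutation p = 0.2, two-sided, over the 20 arrangements of the libraries, of which the smallest possible p is 0.1). The order of these libraries was within counting error, with 3376 and 3219 fragments (exact Poisson 95% intervals 3263 to 3492 and 3109 to 3332). The log2 fold change was 0.79 ± 0.32, and without ACSS2-flox replicate 1 and ACSS2-HKO replicate 3 it was 0.25 ± 0.18.

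Cd5l, Marco, Adgre1 and Cd68 complete the set. Cd5l encodes AIM, a protein that macrophages secrete into the blood. It was the most abundant of the 10 in both genotypes by mean, at 148, 137 and 386 FPKM in ACSS2-HKO, against 48.1, 121 and 97.1 FPKM in ACSS2-flox. The groups did not overlap, but ACSS2-flox replicate 1 had 0.442 times the mean of the other controls and ACSS2-HKO replicate 3 had 2.71 times the mean of the other ACSS2-HKO libraries. The log2 fold change of 1.26 ± 0.46 (limma adjusted p = 0.637) was 0.40 ± 0.18 without both of these libraries.

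Marco encodes a scavenger receptor for bacteria and particles. It had the widest range on the log2 scale, at 31.7, 44.0 and 159 FPKM in ACSS2-HKO, against 7.503, 28.0 and 16.7 FPKM in ACSS2-flox. The lowest ACSS2-HKO library, at 31.7 FPKM, lay only a little above the highest control, at 28.0 FPKM. Its log2 fold change was 1.92 ± 0.62 (limma adjusted p = 0.637), the largest of the 10, and ran from 1.23 to 2.38 as each library was left out in turn. Without both libraries that stand apart it was 0.76 ± 0.27, still the largest of the 10.

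Adgre1 encodes F4/80, the adhesion receptor by which mouse macrophages are usually stained. It read 12.97, 10.4 and 26.2 FPKM in ACSS2-HKO, against 2.64, 11.1 and 8.51 FPKM in ACSS2-flox. Its groups overlapped (exact permutation p = 0.2, two-sided), with ACSS2-flox replicate 1 at 0.268 times the mean of the other controls. ACSS2-flox replicate 2 lay above ACSS2-HKO replicate 2 within counting error, with 1389 and 1249 fragments (exact Poisson 95% intervals 1317 to 1464 and 1181 to 1320). The log2 fold change was 1.12 ± 0.48 (limma adjusted p = 0.649). It was 0.60 ± 0.36 without ACSS2-flox replicate 1 and 0.23 ± 0.19 without both libraries that stand apart. Adgre1 is also the only one of the 10 whose span overlaps other annotated genes, of which there are 2, and whether fragments were shared with them is unknown.

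Cd68 encodes a glycoprotein of macrophage lysosomes. It read 33.0, 23.5 and 61.8 FPKM in ACSS2-HKO, against 16.6, 20.6 and 19.9 FPKM in ACSS2-flox. Controls were close together and all lay below ACSS2-HKO replicate 2, the lowest of its group. The log2 fold change was 0.91 ± 0.32 (limma adjusted p = 0.637), from group means of 39.4 ± 19.9 FPKM in ACSS2-HKO and 19.0 ± 2.14 FPKM in ACSS2-flox (SD, n = 3 each). It was 0.44 ± 0.19 without both libraries that stand apart.

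Apart from the narrow gap of Timd4 and the overlaps of Vsig4 and Adgre1, counting error was small beside the differences between group means. The fewest fragments behind any value were 298 for Adgre1 in ACSS2-flox replicate 1 (exact Poisson 95% interval 265 to 334), and the most were 31063 for Cd5l in ACSS2-HKO replicate 3. These intervals cover counting error only. Together the 10 genes summed to 720.3, 672 and 1660.3 FPKM in ACSS2-HKO, against 364, 556 and 478 FPKM in ACSS2-flox. The lowest ACSS2-HKO library lay above the highest control.

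**Figure D2:**
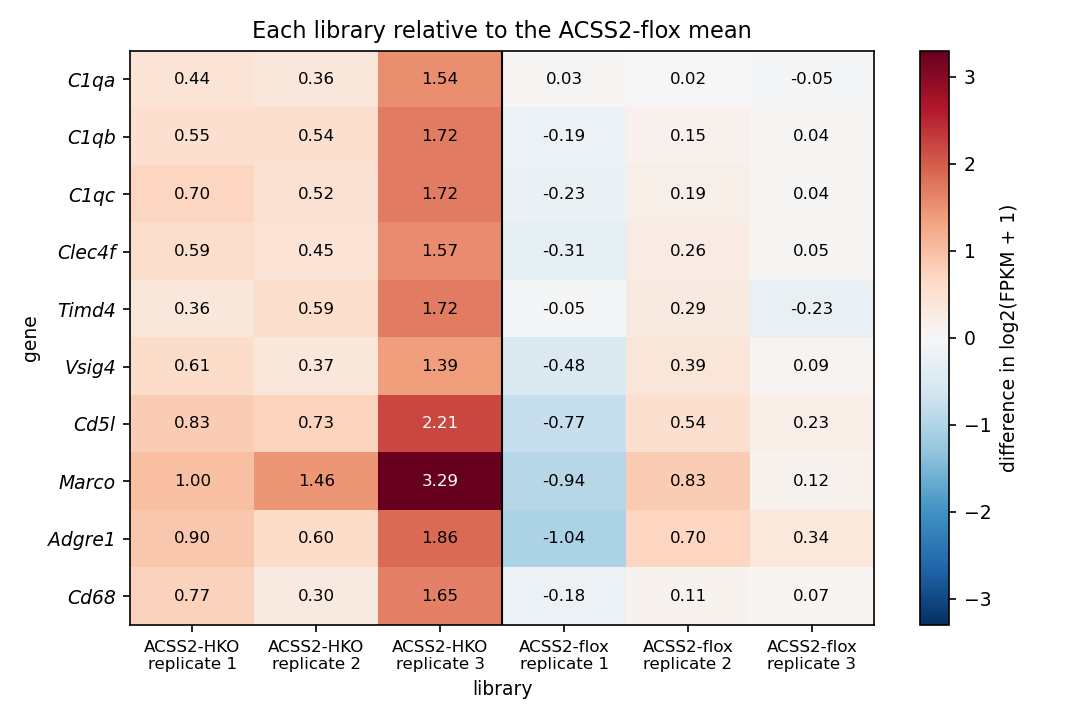
Difference in log2(FPKM + 1) of each gene (rows) in each library (columns, ACSS2-HKO left of the line and ACSS2-flox right of it) from the mean of the 3 ACSS2-flox libraries, with red above and blue below it. ACSS2-HKO replicate 3 is the reddest column, from 1.39 for Vsig4 to 3.29 for Marco, and the blue column is ACSS2-flox replicate 1, in which C1qa at 0.03 and Timd4 at -0.05 were near the control mean.

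The size of the difference depended on these 2 libraries. The median log2 fold change of the 10 genes was 0.92, against 0.10 for all tested genes, of which 66% were above 0. It was 0.54 without ACSS2-HKO replicate 3, 0.83 without ACSS2-flox replicate 1 and 0.43 without both. In the 4 libraries that remained, 8 of the 10 genes were higher in both ACSS2-HKO libraries than in both ACSS2-flox libraries, against 23.4% of all tested genes. There the ratio of the means ran from 1.19 for Adgre1 and Vsig4 to 1.42 for C1qc, and it was 1.69 for Marco.

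Within ACSS2-HKO, replicate 3 exceeded the mean of replicates 1 and 2 by 1.88-fold for Vsig4 to 2.71-fold for Cd5l, and by 4.21-fold for Marco. The departure of ACSS2-flox replicate 1 was less uniform. Relative to the mean of the other controls it was lower by more than 1 on the log2 scale for Adgre1 (-1.56), Marco (-1.41) and Cd5l (-1.15), and near them for C1qa (0.05) and Timd4 (-0.08). Over all tested genes that library differed by a median of -0.27. The median was 0.18 for genes of lengths within 20% of that of C1qa and -0.30 for those like Adgre1, so values moved with gene length. For genes like Marco, Cd5l and Vsig4 in length the medians were -0.09, -0.10 and 0.03. Marco, Cd5l and Vsig4 themselves lay at -1.41, -1.15 and -0.72, so these genes departed by more than genes of their length. Timd4 alone lay above the median of its length, at -0.08 against -0.15. With a loess correction for gene length the fold changes of the 10 genes ran from 0.71 for Vsig4 and C1qa to 1.83 for Marco.

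**Figure D3:**
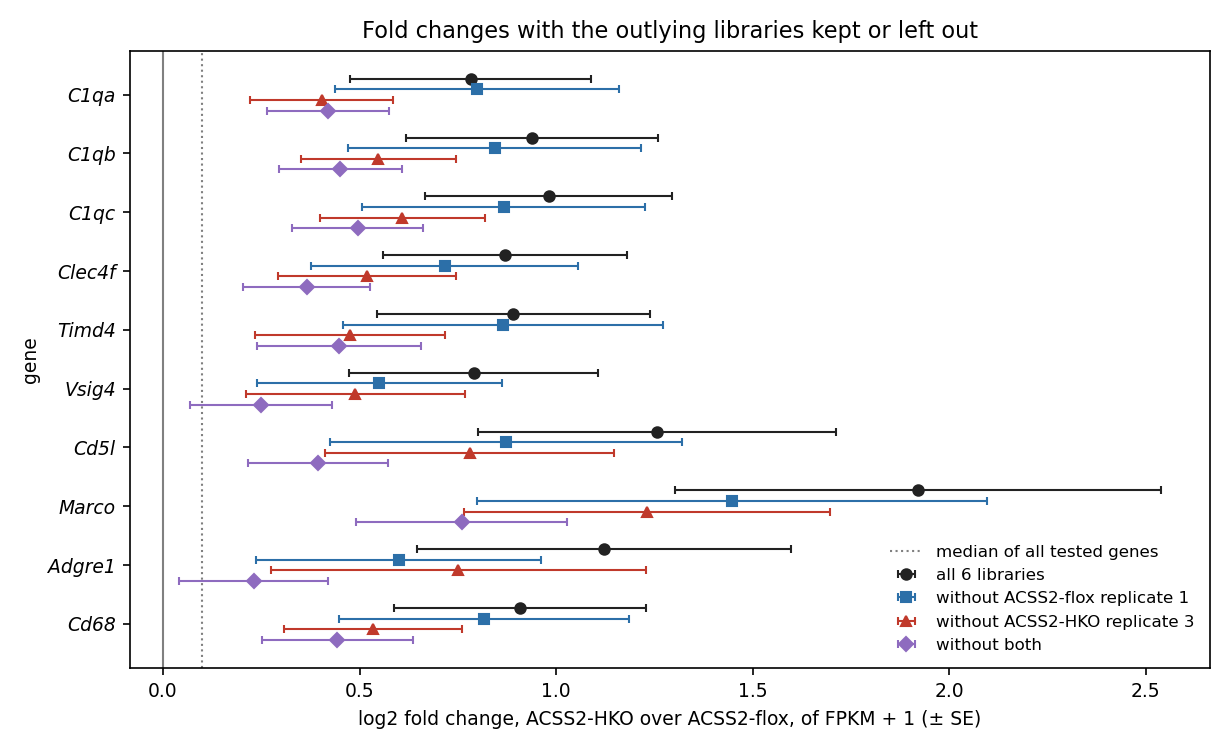
Log2 fold change of FPKM + 1 (ACSS2-HKO over ACSS2-flox, ± SE, horizontal axis) of each of the 10 genes with all 6 libraries (black circles), without ACSS2-flox replicate 1 (blue squares), without ACSS2-HKO replicate 3 (red triangles) and without both (purple diamonds). Every point lies to the right of 0 and of the dotted line at 0.10, the median of all tested genes, and the purple points lie between 0.23 and 0.76.

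Levels followed nearly the same order in both genotypes. By mean FPKM in ACSS2-HKO the order was Cd5l, C1qb, C1qc, C1qa, Vsig4, Marco, Clec4f, Cd68, Adgre1 and Timd4, and the ranges of all neighbours in it overlapped. In ACSS2-flox it was Cd5l, C1qa, C1qb, C1qc, Vsig4, Clec4f, Cd68, Marco, Adgre1 and Timd4, where the ranges of C1qc and Vsig4, and of Clec4f and Cd68, did not overlap. The place of Marco, above Clec4f by mean in ACSS2-HKO and below Cd68 in ACSS2-flox, was the main difference. Within single libraries Marco exceeded Clec4f in 1 of the 3 ACSS2-HKO libraries only.

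Ratios within a library show how alike the genes varied. The ratio of Clec4f to Cd68, a Kupffer cell gene over a general macrophage gene, was 1.77, 2.27 and 1.89 in ACSS2-HKO, against 1.87, 2.26 and 2.01 in ACSS2-flox. The groups covered the same range, with means of 1.98 ± 0.257 and 2.05 ± 0.198 in ACSS2-HKO and ACSS2-flox (SD, n = 3 each). Timd4 over Cd68 averaged 0.280 ± 0.0704 in ACSS2-HKO and 0.264 ± 0.0532 in ACSS2-flox. Vsig4 over Cd68 averaged 2.32 ± 0.302 in ACSS2-HKO and 2.58 ± 0.505 in ACSS2-flox. For these 3 ratios the genotypes differed by less than the spread between libraries.

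Adgre1 over Cd68 was steady in ACSS2-HKO, at 0.393, 0.442 and 0.424, and varied in ACSS2-flox, at 0.159, 0.542 and 0.428. Marco over Cd68 was 0.962, 1.87 and 2.58 in ACSS2-HKO, against 0.453, 1.36 and 0.840 in ACSS2-flox. Marco thus lay higher relative to the other genes in ACSS2-HKO replicates 2 and 3 than in any control, but replicate 1 lay within the controls, and the groups overlapped (exact permutation p = 0.2, two-sided, 1 of 10 ratios computed).

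**Figure D4:**
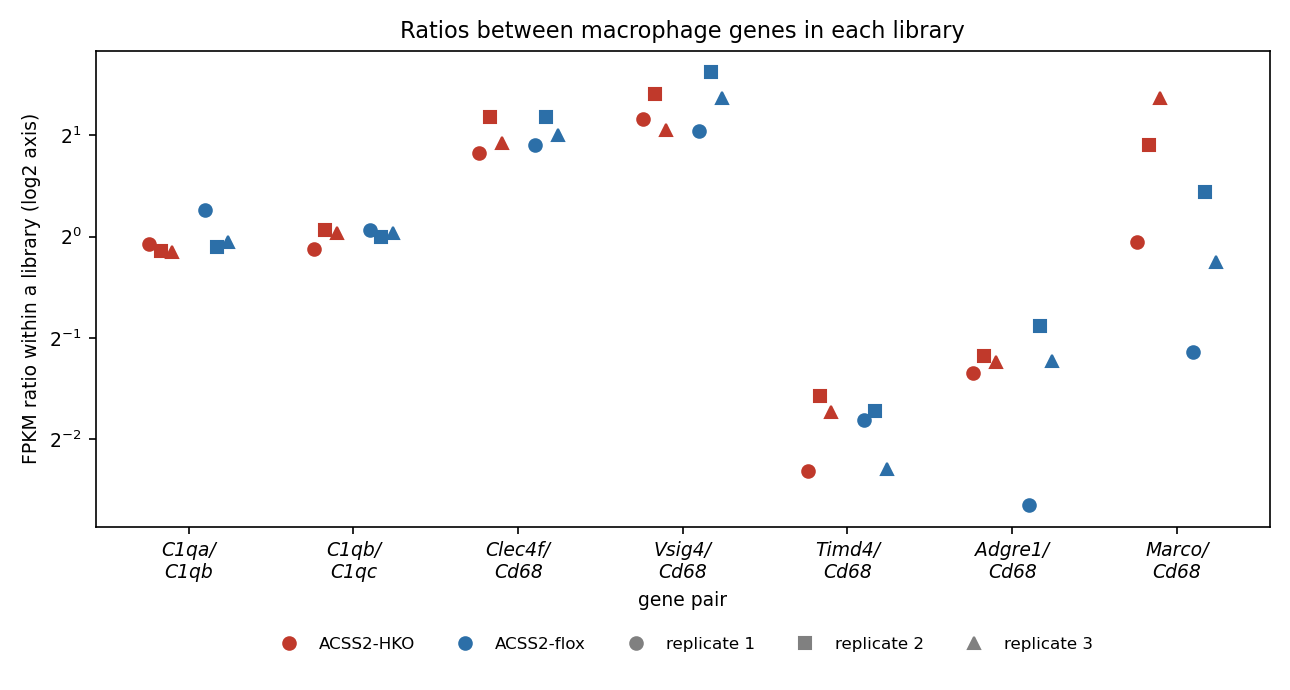
FPKM ratio of 7 gene pairs within each library (log2 axis), ACSS2-HKO in red on the left of each pair and ACSS2-flox in blue on the right, with marker shapes for replicate numbers. The genotypes overlap for every pair, and the widest spread is that of Marco over Cd68, from 0.453 to 2.58.

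Genes with the most similar profiles were searched over the whole tested table by the root-mean-square difference of centred log2(FPKM + 1) values over the 6 libraries. This likeness describes these libraries only. Nearest to C1qa was Tyrobp, which encodes the adaptor DAP12 of myeloid receptors, at a distance of 0.0267, followed by Ly6e and Cfp, the gene of properdin. C1qb was nearest to C1qc, Clec4a3 and Spi1, and C1qc to Spi1, at 0.0596, then C1qb and Tnfaip2. Spi1 encodes PU.1, the factor whose core motif is marked in the upstream runs of C1qb, Cd5l and Marco.

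Clec4f was nearest to Ncf1, P2ry13 and C1qc. Timd4 was nearest to Fgr, Fgd2 and Myo1g, and Vsig4 to Cd44, Kctd12 and Axl. Cd68 was nearest to the Fc receptor genes Fcgr3 and Fcgr1 and to Slc15a3, which lay between them. Cd5l and Adgre1 shared Laptm5 as nearest gene, at 0.135 and 0.167, and each had the other among its 3 nearest, with Csf1r as the third for Adgre1. Marco had no close match: its nearest genes were Ccl6 at 0.387, Cd5l at 0.449 and Cd300e at 0.509.

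The lists that follow are to be read against the shares over all tested genes, of which 66% were above 0 (49% with median-ratio scaling) and 12.5% did not overlap on the higher side.

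Of 24 other genes of Kupffer cell identity, 22 were tested, 20 were above 0 and 6 had groups that did not overlap on the higher side, with a median log2 fold change of 0.64 that was 0.14 without both libraries that stand apart. By level the first were Hpgd (a prostaglandin dehydrogenase gene that hepatocytes also express), Slc40a1 (ferroportin, the iron exporter), Fcna (ficolin A) and Cfp. Cfp read 40.8, 40.6 and 98.2 FPKM in ACSS2-HKO, against 32.9, 31.9 and 27.9 FPKM in ACSS2-flox. Fcna read 50.7, 59.1 and 124 FPKM in ACSS2-HKO, against 34.9, 57.8 and 59.1 FPKM in ACSS2-flox, and overlapped. Slc40a1 and Hpgd also overlapped, with log2 fold changes of 0.31 ± 0.29 and -0.13 ± 0.17.

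The smallest unadjusted p values of that list were those of Slc16a9, at 0.65 ± 0.22, and Il18bp, the gene of the interleukin-18 binding protein, at 0.73 ± 0.25 on the log2 scale. Genes named from here on beyond the rule were chosen after their values were seen, Cd207 and Cd163 first. Cd207 (langerin) was the one gene of the list with groups that did not overlap on the lower side, at 1.01, 0.997 and 1.19 FPKM in ACSS2-HKO, against 1.24, 3.21 and 3.25 FPKM in ACSS2-flox. Cd163, the haemoglobin scavenger receptor gene, read 5.23, 3.56 and 12.0 FPKM in ACSS2-HKO, against 1.88, 5.76 and 3.93 FPKM in ACSS2-flox, with ACSS2-HKO replicate 2 below the middle control.

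Of 24 genes shared by mononuclear phagocytes, 23 were tested, all 23 were above 0 and 9 did not overlap, with a median of 0.80 (0.27 without both libraries that stand apart). Lyz2 (lysozyme), Cd74 (the invariant chain of class II molecules), Wfdc17 and Lgmn (legumain) had the highest levels. Lgmn read 87.0, 66.2 and 161 FPKM in ACSS2-HKO, against 29.6, 59.1 and 56.8 FPKM in ACSS2-flox, a log2 fold change of 1.06 ± 0.37. Fcgr3, a low-affinity Fc receptor gene, had one of 0.97 ± 0.31. Lyz2, Cd74 and Wfdc17 had groups that overlapped, with log2 fold changes of 0.86 ± 0.41, 0.50 ± 0.39 and 0.80 ± 0.38. Lyz2 resembles Lyz1, and the division of shared fragments between them is unknown.

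Cd14, the co-receptor for bacterial lipopolysaccharide, showed how much of a mean 1 library can hold. It read 7.13, 3.91 and 76.3 FPKM in ACSS2-HKO, against 2.04, 4.89 and 3.11 FPKM in ACSS2-flox. Its log2 fold change of 1.80 ± 0.88 was 0.59 without ACSS2-HKO replicate 3.

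Transcription factors of macrophages were near the background in direction. Of 18 on the list, 15 were tested, 10 were above 0 (66% of all tested genes were), 3 did not overlap on the higher side and 1 on the lower side, with a median of 0.34 that was -0.07 without both libraries that stand apart. Spi1 read 12.7, 10.8 and 28.1 FPKM in ACSS2-HKO, against 6.68, 8.05 and 7.56 FPKM in ACSS2-flox, and its log2 fold change was 0.996 ± 0.32 (limma adjusted p = 0.637). Cebpb lay the other way, at 45.9, 43.5 and 60.9 FPKM in ACSS2-HKO, against 94.0, 85.9 and 77.0 FPKM in ACSS2-flox, with no overlap and a log2 fold change of -0.77 ± 0.19. Hepatocytes express Cebpb too, as they do the nuclear receptor genes Rxra and Nr1h3 (LXR alpha), which had log2 fold changes of 0.34 ± 0.22 and 0.22 ± 0.17.

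Id3, which encodes an inhibitor of DNA binding required for Kupffer cells in mice, read 30.0, 41.7 and 52.3 FPKM in ACSS2-HKO, against 23.7, 29.9 and 43.6 FPKM in ACSS2-flox, and overlapped. Spic, the factor of iron-recycling macrophages, read 2.64, 2.75 and 9.78 FPKM in ACSS2-HKO, against 1.94, 1.93 and 2.89 FPKM in ACSS2-flox, with ACSS2-HKO replicates 1 and 2 within the range of the controls.

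Growth factors, niche ligands and their receptors gave a median of 0.30 over 16 tested of 24 listed genes, which was -0.02 without both libraries that stand apart. Of the 16, 14 were above 0 and 1 was without overlap, against 12.5% of all tested genes. That gene was Csf2rb, the common beta receptor chain, at 2.92, 2.09 and 7.83 FPKM in ACSS2-HKO, against 0.767, 1.80 and 1.76 FPKM in ACSS2-flox. The receptor gene Csf1r, on which macrophages depend, read 29.6, 24.4 and 61.2 FPKM in ACSS2-HKO, against 11.4, 29.2 and 19.8 FPKM in ACSS2-flox, and overlapped. Its ligand gene Csf1 read 4.61, 3.34 and 10.5 FPKM in ACSS2-HKO, against 2.75, 3.75 and 3.14 FPKM in ACSS2-flox, also with overlap.

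The chemokine gene Cxcl12 and the receptor genes Eng (endoglin) and Tgfbr2 had groups that overlapped, with log2 fold changes of -0.03 ± 0.19, 0.12 ± 0.32 and 0.50 ± 0.44 that each changed sign under at least 1 alternative. Ccl2, the chemokine that draws monocytes, read 1.44, 1.90 and 23.3 FPKM in ACSS2-HKO, against 0.883, 1.87 and 0.971 FPKM in ACSS2-flox. Only ACSS2-HKO replicate 3 stood clear of the controls.

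Scavenger and dead-cell receptors with their bridging proteins had a median of 0.52 over 17 tested of 23 listed genes, or 0.27 without both libraries that stand apart, with 16 above 0 and 6 without overlap. Cd36, a fatty acid and scavenger receptor that hepatocytes express as well, had the smallest p of any list gene. It read 74.3, 55.2 and 53.4 FPKM in ACSS2-HKO, against 23.0, 29.2 and 32.7 FPKM in ACSS2-flox. The difference was 1.08 ± 0.21 on the log2 scale, at an adjusted p of 0.452 by limma. ACSS2-HKO replicate 3 was the lowest ACSS2-HKO library for Cd36, in contrast to all 10 macrophage genes. Lrp1, Calr (calreticulin) and Scarb1, all broadly expressed in liver, had log2 fold changes of 0.63 ± 0.19, 0.63 ± 0.21 and 0.38 ± 0.16.

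Genes of recruited monocytes were mostly below the filter, with 13 of the 22 listed below it and 9 tested. All 9 were above 0 and 4 did not overlap, with a median of 0.76 that was 0.20 without ACSS2-HKO replicate 3 and 0.29 without both libraries that stand apart. Hp (haptoglobin), Ifitm3, Fcgr4 and Treml4 led by level. Hp, which hepatocytes make, made up most of the list's sum, so that sum says little about monocytes. Fcgr4 read 15.0, 9.94 and 41.3 FPKM in ACSS2-HKO, against 6.83, 10.3 and 8.45 FPKM in ACSS2-flox. Ifitm3 and Treml4 had log2 fold changes of 0.27 ± 0.25 and 0.66 ± 0.39, and overlapped as Fcgr4 did.

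Lipid-associated macrophage genes, known from fatty liver, gave a median of 0.35 over 16 tested genes, or 0.19 without both libraries that stand apart, with 13 above 0 and 6 without overlap. The highest levels were those of Apoe, Ctsb, Ctsd and Ctsl, which hepatocytes share. Ctsb and Ctsd had log2 fold changes of 0.39 ± 0.23 and 0.50 ± 0.25, Ctsl one of 0.22 ± 0.27 and Apoe one of -0.27 ± 0.28. Cd9, a tetraspanin gene, read 31.2, 41.9 and 42.6 FPKM in ACSS2-HKO, against 16.5, 22.6 and 24.7 FPKM in ACSS2-flox. Trem2, the receptor that defines these cells, was low throughout, at 2.29, 1.05 and 2.59 FPKM in ACSS2-HKO, against 0.699, 1.196 and 1.30 FPKM in ACSS2-flox, with overlap.

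The proteases and substrates that act downstream of C1q are made largely by hepatocytes. Of 12 listed, 11 were in the table and 9 were tested, of which 8 were above 0 and 4 did not overlap, with a median of 0.39 (0.25 without both libraries that stand apart). C3 read 2310, 2458 and 4573 FPKM in ACSS2-HKO, against 1114, 2174 and 1693 FPKM in ACSS2-flox. C4b read 198, 237 and 367 FPKM in ACSS2-HKO, against 167, 184 and 127 FPKM in ACSS2-flox. For both genes the lowest ACSS2-HKO library lay above the highest control by a small margin. Their log2 fold changes were 0.89 ± 0.36 for C3 and 0.71 ± 0.27 for C4b. C2, the inhibitor gene Serping1 and C4bp had log2 fold changes of 0.64 ± 0.25, 0.40 ± 0.21 and 0.39 ± 0.20. No difference from the C1q chains was tested.

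Over all of these lists limma called 0 genes, and the lists were chosen with earlier results of these data known.

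Markers of other cell types were summed in each library to show what else differed beside the macrophage genes. Neutrophil markers (15 genes) summed to 41.5, 58.0 and 373 FPKM in ACSS2-HKO, against 19.1, 14.6 and 8.65 FPKM in ACSS2-flox. S100a8 and S100a9 made up most of each sum, at 138 and 177 FPKM in ACSS2-HKO replicate 3. Of the 15 genes, 9 were below the filter and 6 were at 0 in some library. ACSS2-HKO replicate 3 was far above the rest for them as well. Ly6g, their defining surface marker, read 0.0302, 0.208 and 1.083 FPKM in ACSS2-HKO and 0 in all 3 ACSS2-flox libraries. At a mean of 0.220 FPKM over the 6 libraries it was below the filter and not tested, so these values lie near the floor. B cell markers (10 genes) summed to 9.38, 12.8 and 17.5 FPKM in ACSS2-HKO, against 8.25, 6.21 and 5.98 FPKM in ACSS2-flox. Their part, and that of neutrophils, in the macrophage result was not tested.

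Large peritoneal macrophage markers (8 genes) summed to 287 to 316 FPKM in ACSS2-HKO and 169 to 265 FPKM in ACSS2-flox, mostly through Fn1, which hepatocytes make. Of the 8, 5 were tested and all 5 were above 0. Prg4 read 24.7, 25.9 and 33.0 FPKM in ACSS2-HKO, against 15.2, 16.3 and 15.0 FPKM in ACSS2-flox, with no overlap. Gata6, their defining factor, read 2.78, 1.57 and 2.63 FPKM in ACSS2-HKO, against 2.09, 1.92 and 2.11 FPKM in ACSS2-flox, and Alox15 was under 0.1 FPKM in every library. The part of these cells in the macrophage result was not tested. T and NK cell markers (13 genes) summed to 8.38, 9.25 and 21.3 FPKM in ACSS2-HKO, against 12.0, 7.99 and 6.91 FPKM in ACSS2-flox, with overlap. Dendritic cell markers (10 genes) ran from 143 to 224 FPKM in ACSS2-HKO and from 147 to 159 FPKM in ACSS2-flox, nearly all of it from Bst2.

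Sinusoidal endothelial markers (12 genes), from the vessels in which Kupffer cells sit, summed to 277, 229 and 249 FPKM in ACSS2-HKO, against 87.6, 305 and 366 FPKM in ACSS2-flox. ACSS2-flox replicate 1 was low for them as it was for Adgre1, Marco and Cd5l, while the other controls were above all ACSS2-HKO libraries. Stellate cell markers (12 genes) summed to 203 to 332 FPKM in ACSS2-HKO and 237 to 298 FPKM in ACSS2-flox. Cholangiocyte markers (9 genes) summed to 30.1 to 41.0 FPKM in ACSS2-HKO and 25.1 to 34.7 FPKM in ACSS2-flox, mostly through Anxa4. All 9 had a log2 fold change above 0, but 7 were below the filter and not tested. Krt19 read 1.02, 0.905 and 1.25 FPKM in ACSS2-HKO, against 0.796, 0.778 and 0.516 FPKM in ACSS2-flox, with no overlap. Sox9, Krt7 and Epcam overlapped. Hepatocyte markers (12 genes) summed to 58824, 54320 and 50000 FPKM in ACSS2-HKO, against 89568, 61574 and 58347 FPKM in ACSS2-flox. The highest hepatocyte sum was in ACSS2-flox replicate 1 and the lowest in ACSS2-HKO replicate 3, the libraries with the lowest and the highest macrophage sums. Alb made up most of each sum, 59759 FPKM in ACSS2-flox replicate 1, and Apob, Cps1 and Hnf4a went the other way, with their lowest value of all 6 libraries in that library. FPKM is a share of a library, and the part of this in the macrophage values was not tested.

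**Figure D5:**
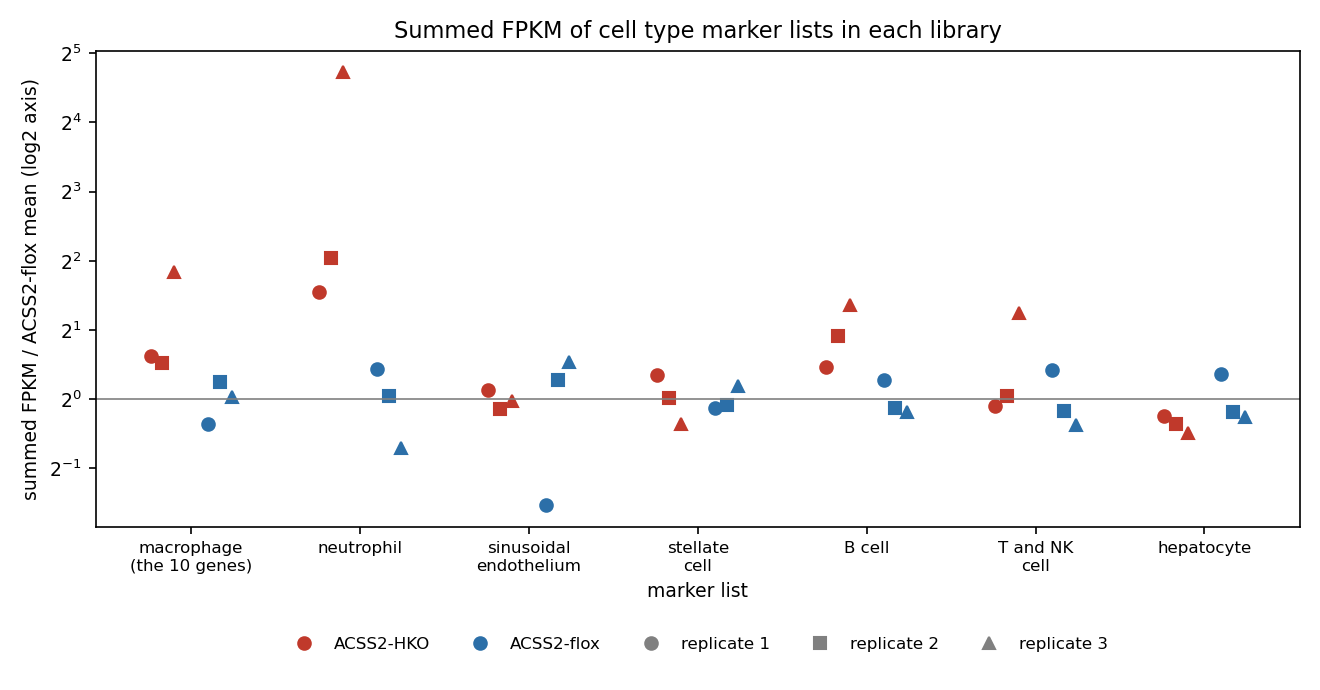
Summed FPKM of the 10 macrophage genes and of 6 lists of other cell types in each library, divided by the mean of the 3 ACSS2-flox libraries (log2 axis), ACSS2-HKO in red on the left and ACSS2-flox in blue on the right of each list. Macrophage, neutrophil and B cell sums do not overlap between the genotypes and are higher in ACSS2-HKO, and the sinusoidal endothelial sum is low in ACSS2-flox replicate 1.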

How the data were processed

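Liver RNA of 3 ACSS2-HKO and 3 ACSS2-flox libraries was prepared for sequencing with a VAHTS Universal V6 kit according to the labels. The authors deposited 1 table of FPKM values for 16135 genes. The submitters' processing notes name the build mm10 and the tool DESeq2, with no role. The aligner, the counter, the annotation and the use of strand were not given in the sources used here. Genotype labels set the groups.

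Whole fragments, gene lengths and library totals were recovered from the FPKM values for 16102 genes (99.8%, within 0.01 of a whole number). The totals were 35362997, 35904126 and 39474527 fragments for ACSS2-HKO and 33717125, 37199061 and 38321306 for ACSS2-flox, with 99.2% to 99.4% of them in genes of the table. The search and the test were tested on simulated data. There the search found the true fragments of 95.8% of genes, and of 99% of those with at least 20 fragments in every library.

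limma 3.58.1 in R 4.3.3 was fitted to log2(FPKM + 1) of 9818 genes averaging 1 FPKM or more. Its eBayes step used a trend, tests were two-sided, and p-values were adjusted by Benjamini-Hochberg over all of these genes, with a threshold of 0.05. The pseudocount of 1 understates the fold changes of low genes. Exact permutation tests used the 20 arrangements of the 6 libraries. Coordinates and upstream sequences are from RefSeq (GRCm38.p6, the assembly of mm10), with 8 of the 10 genes matched to a sequence.

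The 10 genes and all lists were chosen with earlier results of these data known. The text names the 10 genes, Acss2, of each macrophage list the 4 genes of highest mean FPKM and the 2 of smallest p, and for each of the 10 genes its 3 nearest profiles. Of the genes taken this way, 1 is not reported here. Lists are described by counts and medians. Alternatives were a pseudocount of 0.1, no filter, median-ratio scaling, a loess correction for gene length (span 0.5), the replicate number as a block, array weights, voom on the recovered fragments, each library left out, and both libraries that stand apart left out. A length correction together with leaving out ACSS2-HKO replicate 3 was chosen after seeing the data.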

Additional observations from a re-analysis of the deposited data

How the results depend on the processing

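All 10 macrophage genes kept a positive log2 fold change under each of the 15 alternatives, and 0 passed an adjusted p of 0.05 under any (adjusted p 0.186 to 0.9995 over these alternatives). Their median ran from 0.43 without both libraries that stand apart to 1.17 without ACSS2-HKO replicate 2, and from 0.54 to 1.17 as single libraries were left out. It was 0.80 with median-ratio scaling, 0.85 with the length correction, 0.65 with array weights and 0.45 with the length correction and without ACSS2-HKO replicate 3. The genes without overlap numbered 8 (12.5% of all tested genes on the higher side and 2.94% on the lower side), but 7 with median-ratio scaling (7.55% and 6.75%) and 6 with the length correction (7.8% and 7.7%). They numbered 8 to 10 as single libraries were left out, where 16.6% to 21.8% of all tested genes were higher in that way. Without ACSS2-flox replicate 1 the table held 1625 such genes higher and 1430 lower. Of the 10, those past an unadjusted p of 0.05 numbered 6 with no filter, where 5.68% of all tested genes were higher and 1.31% lower. The count was also 6 with median-ratio scaling (3.78% and 3.08%), the length correction (4.04% and 3.99%) and array weights (7.67% and 3.89%). It was 1 to 10 as single libraries were left out, where 2.87% to 5.9% of all tested genes were higher at that p. With the length correction and without ACSS2-HKO replicate 3 it was 1 (2.46% and 1.85%). Median-ratio scaling and the length correction shifted the median of all genes by -0.105 and -0.112. Genes without overlap were not counted for the block, array weights and voom. Genes called over the whole table numbered 0, but 4 with the replicate block, and 0 to 3 as single libraries were left out, the 3 without ACSS2-HKO replicate 2. The cause was not tested. Same-numbered libraries correlated at 0.013, 0.0032 and -0.063 in their deviations from the group means over all tested genes. With 3 libraries per group these values cannot decide whether the numbers pair the libraries, since pairing may touch only some genes. Of 47 other named genes, 10 changed sign under some alternative. Without both libraries that stand apart, log2 fold changes were 0.0073 for Apoe, -0.11 for Cd163, 0.14 for Cxcl12, -0.26 for Eng, -0.092 for Fcna, -0.028 for Id3, -0.16 for Slc40a1 and -0.20 for Tgfbr2. Without ACSS2-flox replicate 1 they were -0.027 for Ctsl, 0.11 for Cxcl12, -0.25 for Eng and -0.014 for Tgfbr2. With array weights they were 0.085 for Cxcl12, -0.16 for Eng and -0.012 for Slc40a1. With the length correction and without ACSS2-HKO replicate 3 they were -0.020 for Cd74, -0.014 for Eng and -0.093 for Slc40a1. Eng also read -0.0030 with median-ratio scaling, -0.012 with the length correction and -0.017 without ACSS2-HKO replicate 1. As single libraries were left out, Cxcl12 ran from -0.15 to 0.11, Eng from -0.25 to 0.35, Tgfbr2 from -0.014 to 0.87 and Ctsl from -0.027 to 0.43. Depth limits the narrow gap between the groups of Timd4, which lay within counting error. The same holds for the order of the overlapping libraries of Vsig4 and Adgre1. For the differences between group means, with 298 fragments or more behind each macrophage value, the spread between 3 libraries sets the precision.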
